A study of Mus musculus with 117 samples.

Results

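Keratins are the proteins of the intermediate filaments of epithelial cells, and the keratin genes were followed here through normal cells and tumours of the mouse. A gene was counted as a keratin when its symbol was Krt followed by a number and at most 1 letter, and when the array carried a probe set for it and for no other gene. By this rule 41 keratins were measured among 17097 genes, 21 of them type I and 20 type II, and each was read from its brightest probe set, by the mean of 117 arrays. Membership followed from the symbol and the probe set annotation, and the members were chosen with earlier results of these data known. The study compared tumours from Prom1 conditional mutant mice with normal cells of several organs, under a title that places the origin of cancers in adult tissue stem cells. Prom1 (prominin 1, CD133) is a membrane protein used as a stem cell and progenitor marker.

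The 12 normal groups were cells of prostate, lung, intestine, liver, stomach and uterus, dissociated and separated with magnetic beads against Prom1 into Prom1+ and Prom1- cells. They held 3 Prom1+ and 5 Prom1- samples for prostate, 3 and 7 for lung, 3 and 5 for intestine, 4 and 7 for liver, 3 and 4 for stomach, and 4 and 3 for uterus. The 7 tumour groups were 10 prostatic adenocarcinomas, 14 bronchial papillary adenomas, 13 hepatocellular carcinomas, 11 gastric adenocarcinomas, 9 uterine adenocarcinomas, 3 B-cell lymphomas and 6 skin carcinomas of squamous type. All 117 samples were labelled C57BL/6. The labels of single samples gave no allele, transgene, treatment, age or time, and did not say which samples came from separate animals, so the p-values measure the spread between samples only. Tumours were frozen as pieces and normal cells were dissociated and sorted, so that tumour state and the handling of the tissue cannot be told apart in any comparison between them. In pieces of tissue and in sorted populations, fewer cells of a type and less RNA per cell cannot be told apart either.

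Every keratin filament is built from pairs of 1 type I (acidic) and 1 type II (basic to neutral) keratin. Simple epithelia of gut, liver and glands use Krt8 and Krt18, with Krt7, Krt19 or Krt20 added in ducts, progenitors or the intestinal surface. Basal cells of stratified epithelia use Krt5 and Krt14, with Krt15 beside them; cells above them switch to Krt1 and Krt10 in epidermis and to Krt4 and Krt13 in the lining of mouth and oesophagus. Krt6a, Krt6b and Krt16 are induced in wounded and proliferating epidermis, and a large further set builds the root sheaths and the shaft of hair. By these textbook roles 5 of the measured members were simple keratins, 3 basal, 3 activation, 3 mucosal or corneal and 6 epidermal suprabasal keratins, 6 belonged to the inner root sheath or companion layer, 10 to the hair shaft, and 5 had none of these roles assigned. Krt17 was not analysed here.

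The promoters of the 2 obligate pairs that the results turn on most are shown because the members of each pair lie at different starts but rose and fell together over the groups. Each sequence is RefSeq's for GRCm38.p6 and runs 5′ to 3′ on the gene's own strand from 250 bases before to 50 bases after the transcription start. Capitals mark the letters TATAAA and their reverse complement TTTATA, which overlap in Krt8 and are not found in the other 3 windows. Krt8 lies at chr15:102004293-102004592 on the minus strand, Krt18 at chr15:102027966-102028265 on the plus strand, Krt5 at chr15:101712856-101713155 on the minus strand and Krt14 at chr11:100205981-100206280 on the minus strand.
Krt8: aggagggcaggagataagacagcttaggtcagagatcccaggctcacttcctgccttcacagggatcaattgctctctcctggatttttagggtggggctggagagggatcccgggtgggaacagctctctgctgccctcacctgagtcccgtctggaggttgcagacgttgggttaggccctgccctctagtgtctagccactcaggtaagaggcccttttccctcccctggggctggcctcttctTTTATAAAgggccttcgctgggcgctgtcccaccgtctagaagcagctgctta
Krt18: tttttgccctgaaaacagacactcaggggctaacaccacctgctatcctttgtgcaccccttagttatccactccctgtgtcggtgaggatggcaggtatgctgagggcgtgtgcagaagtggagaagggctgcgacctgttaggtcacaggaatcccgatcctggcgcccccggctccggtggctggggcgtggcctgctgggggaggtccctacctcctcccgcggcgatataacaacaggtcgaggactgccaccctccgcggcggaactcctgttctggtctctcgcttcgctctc
Krt5: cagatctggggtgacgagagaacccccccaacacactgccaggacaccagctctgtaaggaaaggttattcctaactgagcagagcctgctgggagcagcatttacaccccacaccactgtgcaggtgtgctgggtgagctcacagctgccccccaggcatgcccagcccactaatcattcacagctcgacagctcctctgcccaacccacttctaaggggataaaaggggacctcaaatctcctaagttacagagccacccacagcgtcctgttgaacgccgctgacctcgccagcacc
Krt14: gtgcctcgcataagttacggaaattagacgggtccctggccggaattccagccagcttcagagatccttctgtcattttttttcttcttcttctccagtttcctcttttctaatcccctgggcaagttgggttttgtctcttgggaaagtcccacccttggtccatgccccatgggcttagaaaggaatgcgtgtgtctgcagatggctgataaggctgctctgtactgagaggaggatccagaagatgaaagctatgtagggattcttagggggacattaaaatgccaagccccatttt
A promoter entry was matched for 26 of the 41 keratins, with 27 starts. The letters TATAAA, searched on both strands, stood in 14 of the 27 windows, against 13.6% of 32851 promoter windows of the same length. The letters TGANTCA, which read alike on both strands, stood in 2 of the 27 against 7.81% of all windows, and GGGCGG, on both strands, in 2 of the 27 against 35.7%. The search windows are short and a match describes the letters only. Over the means of all 19 groups Krt8 and Krt18 correlated at r = 0.95 and Krt5 and Krt14 at r = 0.99, given as a description of 19 means that share one normalization.

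All values are log2 array signals as deposited, on which a step of 1 is a doubling. Array medians lay between 3.63 and 4.01 and upper quartiles between 5.05 and 6.53, and the 6 arrays with an upper quartile under 6 were sorted normal samples of stomach (3), liver (2) and lung (1). Defining markers stood high in the sorted cells of their organ, as in liver, where 6 measured hepatocyte genes averaged 11.70 in Prom1- and 11.98 in Prom1+ cells. In sorted lung cells the 11 measured general epithelial markers averaged only 5.43 in Prom1- and 4.81 in Prom1+ cells. Beside them 8 leukocyte genes averaged 9.91 and 8.93 and 8 endothelial genes 9.23 and 9.19. In sorted liver cells the same epithelial markers averaged 4.53 and 4.88. The stomach markers ran from 3.23 to 9.99 over the gastric tumours, against 11.85 to 12.98 in normal stomach cells, and the prostate markers from 4.83 to 10.98 over the prostatic tumours against 12.23 to 12.99. Some samples also held markers of another organ. The 8 stomach markers ran from 3.59 to 11.04 over Prom1- and from 5.75 to 7.59 over Prom1+ intestine samples. Hepatocyte genes reached 10.57 in a uterine adenocarcinoma, with a group mean of 3.97. The part of such markers in the keratin values was not tested. Uterine adenocarcinoma 8, prostatic adenocarcinoma 10 and the 6 skin carcinomas stood apart from each other or from their group in several keratins, and the results that rest on them are given with that. Prom1 itself was higher in Prom1+ than in Prom1- cells of prostate (difference 1.76, limma adjusted p = 0.00244), stomach (1.65, adjusted p = 0.0189) and uterus (1.46, adjusted p = 0.0173), and the differences in intestine (0.53), liver (0.23) and lung (0.01) did not pass the test.

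The number of keratins at a high level differed between the groups. The simple keratins Krt8 and Krt18 had a mean above 7 in every group other than B-cell lymphoma, except for Krt18 in Prom1+ lung cells. No keratin reached that level in B-cell lymphoma. Squamous cell carcinoma of the skin held the most, with 19 of 41 keratins above 7, and 28 of the 41 had their highest group mean there. Between 4 and 7 keratins passed 7 in the sorted cells of prostate, lung, intestine, stomach and uterus, and 2, Krt8 and Krt18, in both liver groups and in hepatocellular carcinoma. Among the other tumours there were 6 in bronchial adenoma, 6 in gastric, 8 in prostatic and 10 in uterine adenocarcinoma.

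**Figure D1:**
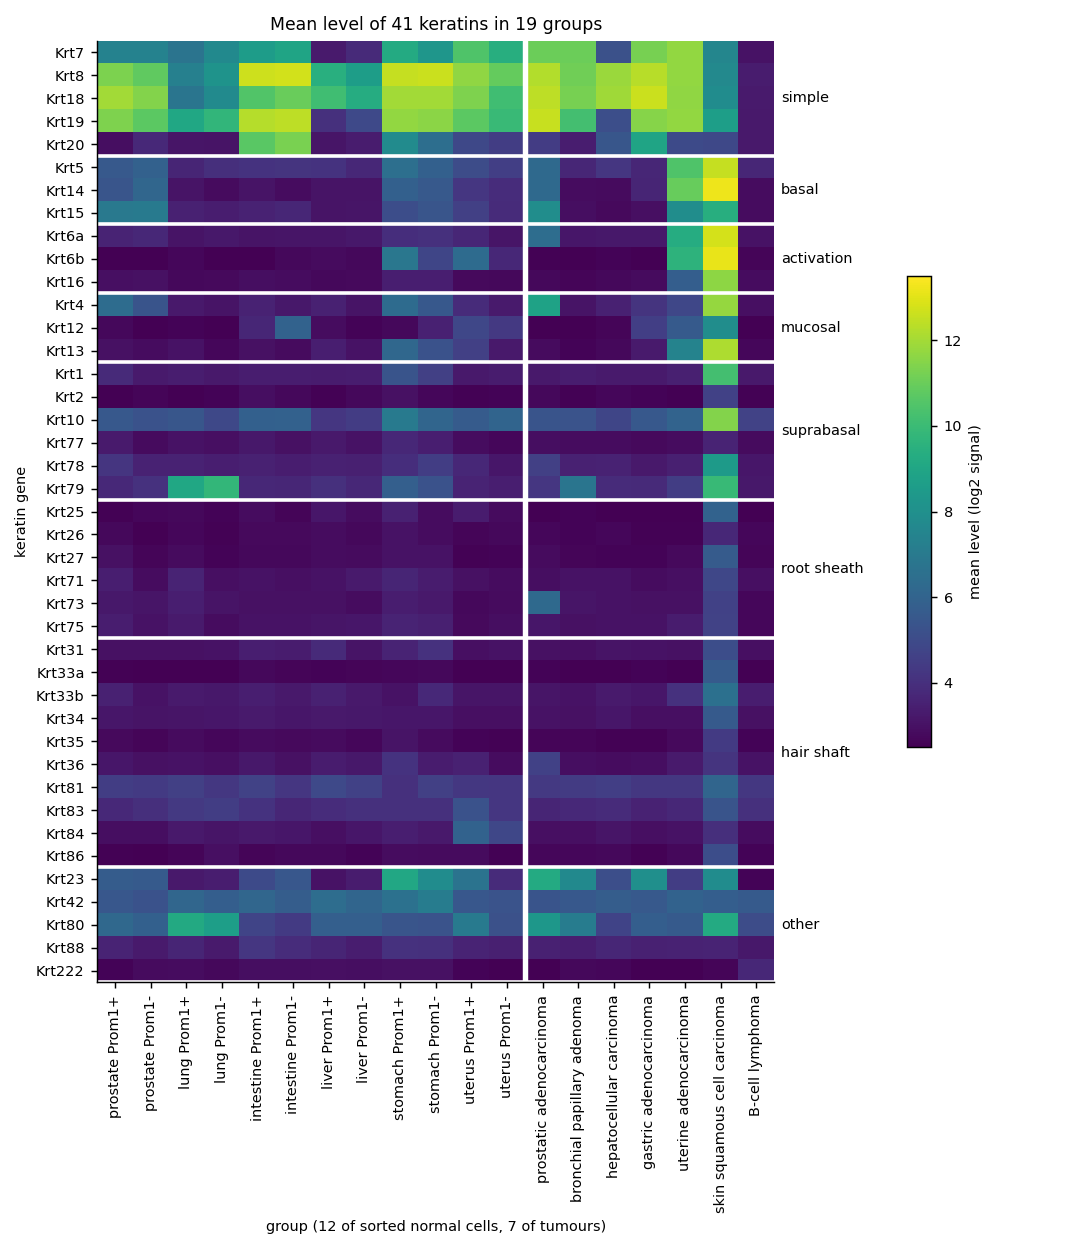
Mean log2 signal of each of the 41 keratins (lines, grouped by role) in each of the 12 sorted normal groups and 7 tumour groups (columns), with the colour scale in log2 signal. Krt8 and Krt18 near the top are bright in nearly every group other than B-cell lymphoma (Krt18 is at 6.77 in Prom1+ lung). B-cell lymphoma is dark throughout, and 28 of the 41 keratins are brightest in squamous cell carcinoma of the skin.

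Krt8 averaged 12.74 ± 0.09 (SD, n = 5) in Prom1- intestine and 12.64 ± 0.64 (n = 4) in Prom1- stomach, its highest levels among Prom1- cells. It was at 10.80 in Prom1- prostate and 10.89 in Prom1- uterus, at 8.63 ± 0.98 (n = 7) in Prom1- liver and lowest in lung, at 8.14 ± 1.07 (n = 7) in Prom1- and 7.30 ± 0.09 (n = 3) in Prom1+ cells. Among Prom1- cells, the ranges of intestine and stomach overlapped, and so did those of prostate and uterus and those of liver and lung, whereas Prom1+ liver (8.30 to 9.90) and Prom1+ lung (7.21 to 7.39) did not overlap. Krt18, the usual partner of Krt8, followed the same order except that stomach (11.96 in Prom1- cells) and prostate (11.45) stood above intestine (10.98). Krt19, a keratin of ducts and of progenitors, was high in intestine (12.41 in Prom1- cells) and stomach (11.57) and low in liver (4.92 ± 1.24, n = 7). Krt7, found in many ducts and glands, ranged from 3.29 ± 0.11 (n = 4) in Prom1+ liver to 10.46 ± 0.57 (n = 4) in Prom1+ uterus. Krt20, known from the surface cells of the gut, was above 7 among normal cells only in intestine (11.29 and 10.66 in Prom1- and Prom1+ cells) and in Prom1+ stomach (7.80 ± 1.05, n = 3). Over the 6 tissues 27 of 30 tested keratins differed (limma F test, adjusted p under 0.05), where 90.1% of all genes did, so that this share is close to the background.

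Krt79 and Krt80 had their highest normal levels in lung. Krt79, known from the upper hair follicle, was at 9.78 ± 0.89 (n = 7) in Prom1- and 9.06 ± 1.64 (n = 3) in Prom1+ lung cells. Krt80, a type II keratin of many epithelia, was at 8.68 and 9.20 there. In the other normal groups Krt79 stayed at 5.81 or below and Krt80 at 7.01 or below.

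**Figure D2:**
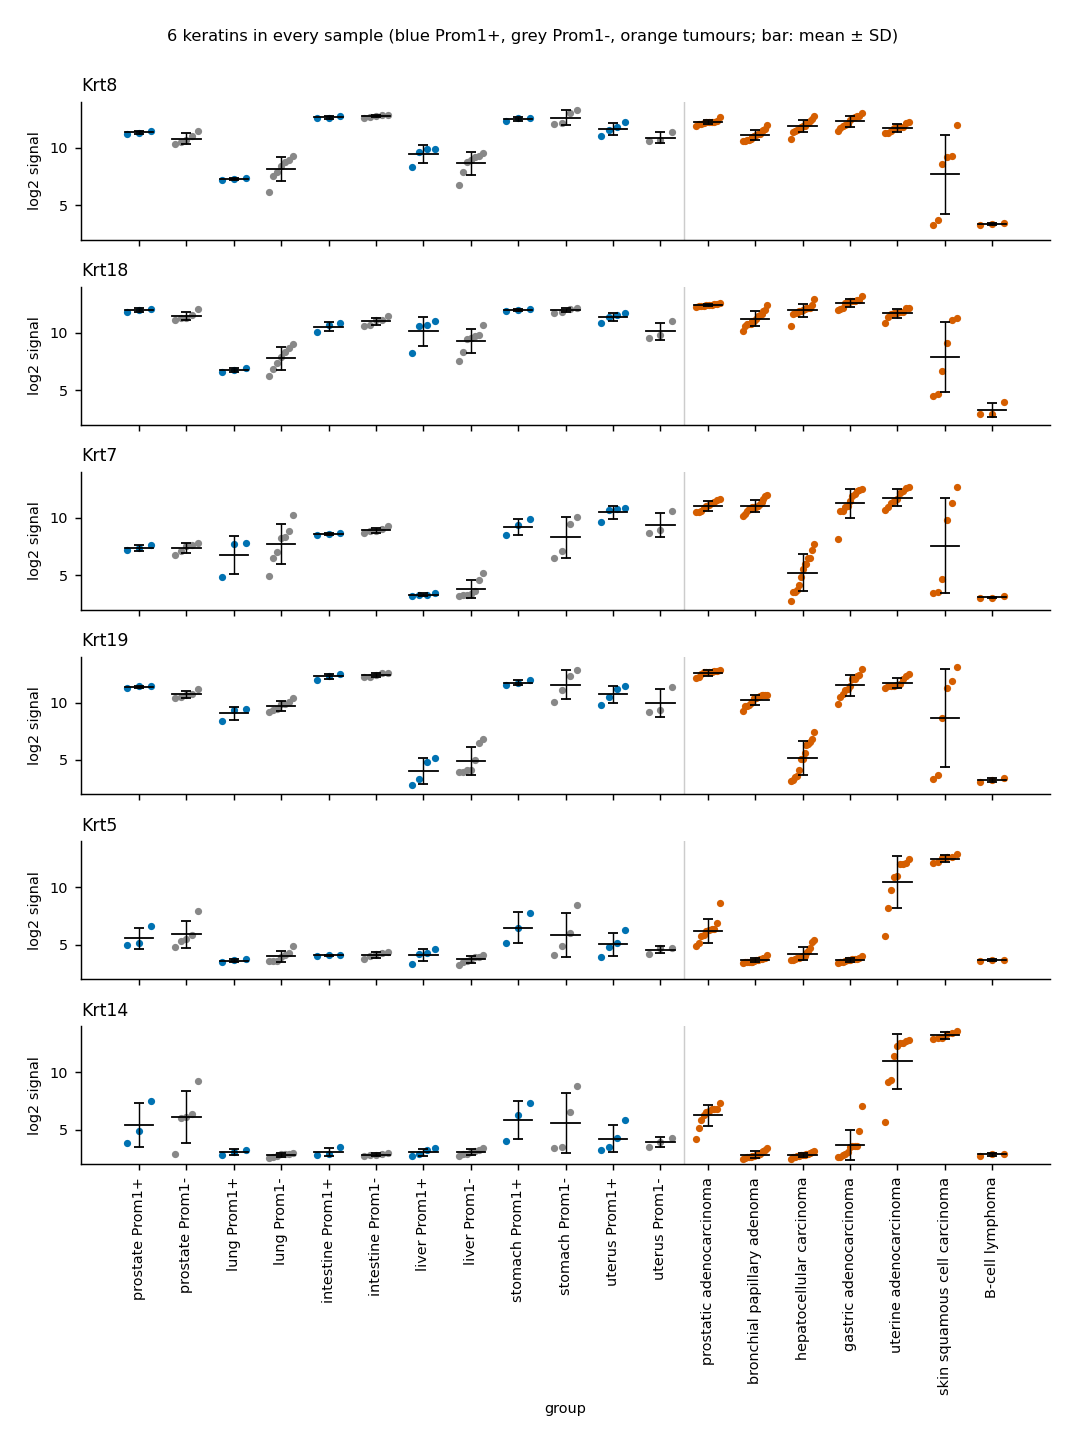
Log2 signal of Krt8, Krt18, Krt7, Krt19, Krt5 and Krt14 in every sample of the 19 groups (blue Prom1+, grey Prom1-, orange tumours), with bars for the group mean ± SD. Krt5 has a mean above 5 in 8 of the 19 groups and Krt14 in 7. Both are above 12 in all 6 skin carcinomas, and 1 uterine adenocarcinoma stays below 6 for both.

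In the sorted cells the question was whether keratins differ between Prom1+ and Prom1- cells of one organ. A keratin is called where its limma p-value, adjusted over all 14081 genes tested, is under 0.05. Of 30 keratins tested, 4 were higher and 0 lower in Prom1+ cells of the uterus, where 10.9% of all genes were called (5.31% higher and 5.64% lower). No keratin was called in prostate (9.19% of all genes called, 3.21% higher), lung (1.51%, 0.391% higher), intestine (0.199%), liver (20.7%, 4.2% higher) or stomach (3.17%); at an unadjusted p under 0.05 there were 2, 2, 1, 1 and 6 keratins there and 8 in uterus. The median difference over the 30 keratins was 0.53 in uterus, against 0.03 over all genes.

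The uterine keratins with the strongest evidence were Krt23, a type I keratin, and Krt80. Krt23 read 6.98, 6.27, 7.84 and 5.72 in the 4 Prom1+ samples and 3.24, 4.56 and 3.81 in the 3 Prom1- samples, a difference of 2.83 (95% interval 1.78 to 3.88, adjusted p = 0.000132 by limma). Krt80 read 6.56, 7.68, 6.94 and 6.85 against 5.21, 5.24 and 5.21, a difference of 1.79 (1.03 to 2.55, adjusted p = 0.000776). In both genes every Prom1+ sample lay above every Prom1- sample.

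Krt6b, a keratin of activated epidermis, read 6.17, 7.41, 5.74 and 5.98 in Prom1+ uterus and 3.68, 3.8 and 3.72 in Prom1- uterus, with no overlap. Its difference of 2.59 (0.82 to 4.37) passed at a limma adjusted p of 0.0475 and was lost when any 1 of the 7 uterine samples was left out. Krt84, a hair-type keratin, differed by 1.11 (0.52 to 1.70, limma adjusted p = 0.00727), a call lost without Prom1- replicate 1 or Prom1+ replicate 2. The simple keratins Krt8 (0.78), Krt18 (1.24), Krt7 (1.08) and Krt19 (0.79) and the basal keratins Krt5 (0.49) and Krt14 (0.32) did not pass, with intervals that reached 1.79, 2.33, 2.61, 1.98, 1.74 and 2.13.

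Cell mixture moved with these uterine values. The mean of 8 fibroblast markers was 10.10 in Prom1- and 8.63 in Prom1+ uterus (4 of 8 lower), that of 7 mesothelial markers 6.28 and 4.24, that of 11 epithelial markers 7.68 and 9.07 (4 of 11 higher), and that of 8 leukocyte markers 8.04 and 9.14 (3 of 8 higher, 1 lower). Ranges over samples did not overlap for fibroblast (9.89 to 10.33 against 8.05 to 9.05), mesothelial (6.12 to 6.39 against 3.84 to 4.47) or leukocyte genes (7.96 to 8.09 against 9.0 to 9.22). Their part in the keratin differences was not tested. Among genes that regulate keratins, 4 of 9 tested were higher in Prom1+ uterus, the largest being Ehf (1.67, adjusted p = 0.0274), Msx2 (1.32, adjusted p = 0.0261) and Grhl2 (1.29, adjusted p = 0.00161), all from the same fit.

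Averaged over the 6 tissues, 3 of 30 keratins were higher in Prom1+ cells and 0 lower (13.6% of all genes called). They were Krt80 (0.51, adjusted p = 0.0147; 0.28 and not called without the 6 arrays with an upper quartile under 6), Krt36, a hair keratin (0.33, adjusted p = 0.013), and Krt88 (0.23, adjusted p = 0.0492), a call lost under 41 alternatives. Krt8, Krt18, Krt7 and Krt19 averaged 0.18, 0.19, 0.04 and -0.01, and none passed. The Prom1+ minus Prom1- difference depended on the tissue for Krt23 (interaction adjusted p = 0.00226) and Krt12 (0.0427) by limma's F test, which called 21.2% of all genes. Krt12, the keratin of the corneal epithelium, read 5.28, 6.51, 6.48, 7.97 and 3.47 in Prom1- and 5.49, 2.77 and 2.72 in Prom1+ intestine, with overlapping groups and no call within the tissue.

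Each tumour type with a normal counterpart was then set against the mean of the Prom1+ and Prom1- cells of its organ, with 39 keratins and 14663 genes tested. Of the 39, 30 were called in at least 1 of the 5 organs (91.8% of all genes were), 14 in exactly 1 (23.9% of all genes) and 8 in both directions (26.8% of all genes). Krt7 alone was higher in all 5, as were 1.16% of all genes. Krt8 and Krt23 were higher in prostate, lung and liver, Krt18 in lung and liver, Krt20 in liver and stomach, and Krt6a in prostate and uterus.

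**Figure D3:**
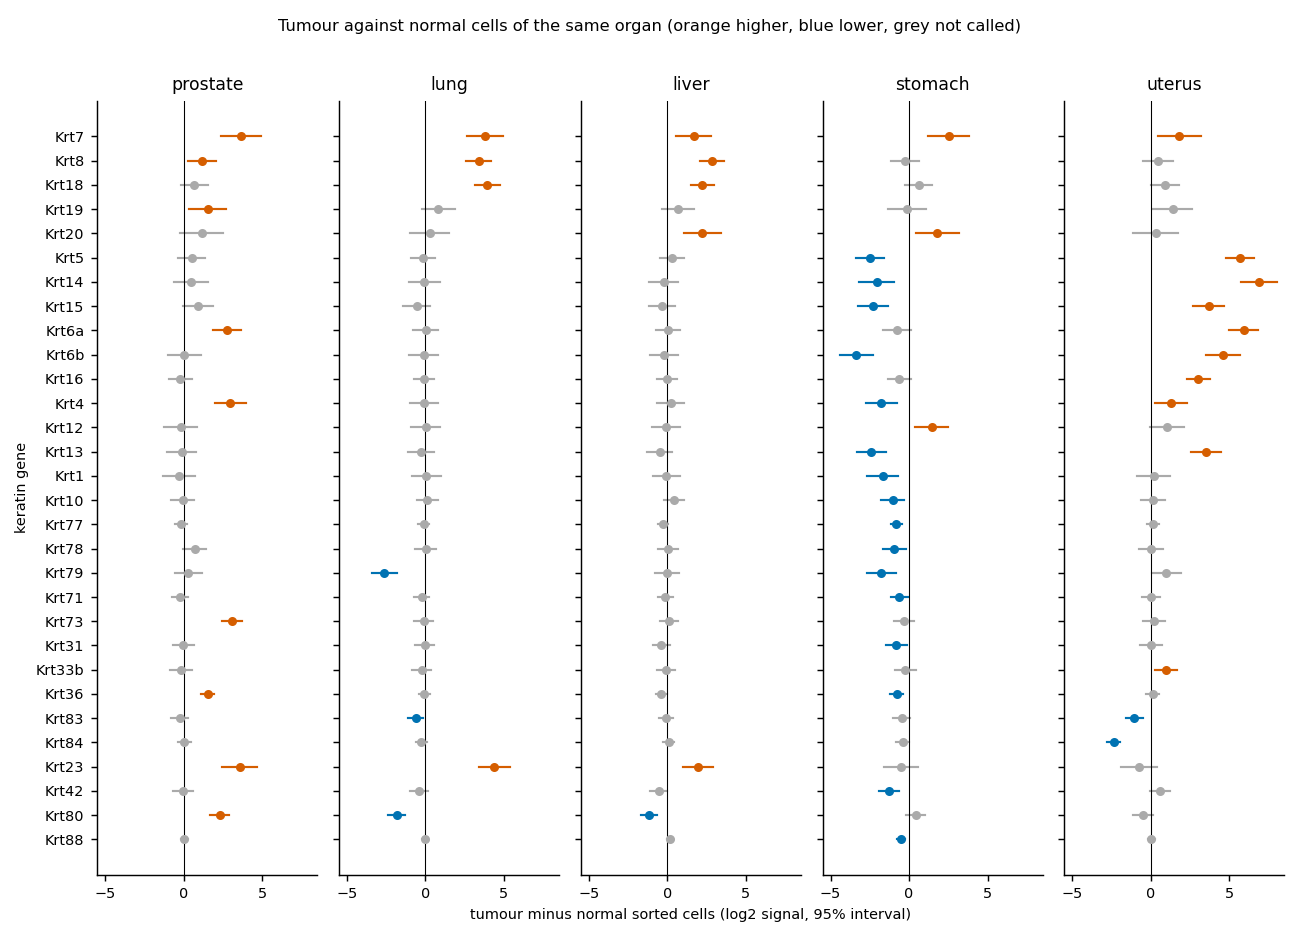
Tumour minus normal sorted cells (log2 signal, points with 95% intervals) in prostate, lung, liver, stomach and uterus, for the 30 keratins called in at least 1 organ (orange higher, blue lower, grey not called). Krt7 is to the right of 0 in all 5 organs, the stratified keratins Krt5, Krt14, Krt15, Krt6b and Krt13 lie to the left in stomach and to the right in uterus, and Krt80 is higher in prostate and lower in lung and liver.

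In the prostate 9 of 39 keratins were higher in the adenocarcinomas and 0 lower, where 36.7% of all genes were called. Krt7 read 10.45, 11.05 and 11.61 (lowest, median and highest of 10) in the tumours, 7.33, 7.15 and 7.65 in Prom1+ and 6.76 to 7.80 in Prom1- cells, without overlap. The difference was 3.66 (95% interval 2.37 to 4.95, limma adjusted p = 2.72e-06). The inner root sheath keratin Krt73 ranged from 4.05 to 8.12 in the tumours and from 2.93 to 3.67 in the normal cells, again apart (3.09, limma adjusted p = 2.75e-13). Krt4, a keratin of mucosal lining, lay at 7.67 to 10.10 in the tumours and 4.89 to 6.82 in normal cells (2.98, limma adjusted p = 4.62e-07).

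Krt23 (3.56), Krt6a (2.75), Krt80 (2.29), Krt19 (1.54), Krt36 (1.53) and Krt8 (1.16) completed the prostatic set, with limma adjusted p-values from 4.44e-10 to 0.0337. Krt19 and Krt8 rose from an already high base, from 10.71 to 12.59 and from 10.80 to 12.23 against Prom1- cells, and both calls were lost without any 1 of the 3 Prom1+ samples and against Prom1+ cells alone, that of Krt8 also without Prom1- replicate 5. Krt18 (0.69), Krt5 (0.51) and Krt14 (0.47) did not pass. Prostatic adenocarcinoma 10 stood apart: Krt6a was 3.36 there and 6.04 to 7.29 in the other 9, Krt23 6.25 against 9.18 to 10.12, while its Krt5 (8.67) and Krt4 (10.10) were the highest of the group. Its 4 urothelial markers averaged 7.55, against 4.47 to 5.34 in the other 9, and their part in these values was not tested. Without it Krt6a differed by 3.09 and Krt23 by 3.89, and again 9 keratins were called. Marker genes moved with the prostatic keratins: 6 of 11 epithelial markers were higher in the tumours, as were 6 of 11 markers of stratified squamous epithelium (1 lower), whose mean ran from 5.01 to 6.14 over the tumours and from 3.46 to 4.66 over the normal samples. All 6 prostate markers, 5 of 8 leukocyte markers and 4 of 7 mesothelial markers (1 higher) were lower. The part of these in the keratin differences was not tested.

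In the lung 4 keratins were higher and 3 lower in the bronchial papillary adenomas (43.1% of all genes called, 23.4% higher and 19.7% lower). Krt18 read 10.17, 11.09 and 12.42 (lowest, median and highest of 14) in the adenomas, 6.96, 6.57 and 6.77 in Prom1+ and 6.27, 7.92 and 9.06 in the 7 Prom1- samples. The groups did not overlap and differed by 3.95 (95% interval 3.18 to 4.72, limma adjusted p = 1.9e-15). Krt8 likewise lay apart, at 10.60 to 11.97 against 6.16 to 9.29 (3.38, limma adjusted p = 8.13e-12). Krt23 rose most, by 4.4 (3.41 to 5.38), from at most 4.43 in every normal sample to between 4.92 and 8.45.

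Krt7 was 3.79 higher (limma adjusted p = 4.62e-08), although 1 Prom1- sample (10.22) reached into the adenomas' range of 10.16 to 11.97. Krt79 fell by 2.63 (limma adjusted p = 3.75e-08), from 9.78 in Prom1- cells to 6.79 ± 1.65 (SD, n = 14), with adenomas as high as 9.85. Krt80 fell by 1.83 (limma adjusted p = 8.97e-09) and Krt83, a hair keratin, fell by 0.62 (0.0255), a call lost without Prom1+ replicate 4 (-0.32, adjusted p = 0.353). Krt19 (0.83), Krt5 (-0.14) and Krt14 (-0.08) did not pass. With these values all 11 epithelial markers tested were higher in the adenomas (median difference 4.17; levels 8.33 to 9.51 against 4.71 to 6.30), and 7 of 8 leukocyte and 7 of 8 fibroblast markers were lower; their part in the keratin differences was not tested.

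In the liver 5 keratins were higher and 1 lower in hepatocellular carcinoma (47.2% of all genes called, 29.2% higher and 18% lower). Krt8 read 10.78, 11.87 and 12.75 (lowest, median and highest of 13) in the carcinomas, 8.30, 9.65, 9.88 and 9.90 in Prom1+ and 6.78, 8.96 and 9.54 in the 7 Prom1- samples, without overlap (2.83, 95% interval 2.06 to 3.60, limma adjusted p = 1.86e-09). Krt18 rose by 2.24 (1.5 to 2.97), from 9.29 and 10.12 to 11.94 ± 0.53 (SD, n = 13). Both are the keratins of the hepatocyte itself. The sorted liver cells were a mixture. The 8 leukocyte markers averaged 9.56 in Prom1- cells, 6.72 in Prom1+ cells and 7.22 in the carcinomas. For 8 endothelial markers the means were 9.51, 7.56 and 6.35, and for 6 hepatocyte genes 11.70, 11.98 and 12.09. The part of these cells in the keratin differences was not tested.

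The 3 other keratins that rose in liver did so unevenly from tumour to tumour. Krt20 ran from 2.5 to 9.58 over the 13 carcinomas, against 2.68 to 3.60 in normal cells (2.23, limma adjusted p = 0.00123). Krt23 ran from 2.61 to 7.72, against 2.88 to 3.71 (1.94, limma adjusted p = 0.000425). Krt7, in liver a keratin of bile ducts, ran from 2.77 to 7.72, against 3.18 to 5.22 (1.68, limma adjusted p = 0.01), a call lost against Prom1- cells alone (adjusted p = 0.0621). Krt19, the other bile duct keratin, ran from 3.14 to 7.44 and did not pass (0.67). The 5 bile duct markers measured averaged between 3.65 and 8.32 over the carcinomas, beside 3.15 to 3.91 in normal cells (3 of 5 higher), and their part was not tested. Krt80 fell by 1.13 (limma adjusted p = 0.000149), and Krt5 (0.29) and Krt14 (-0.24) did not pass.

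In the stomach the direction was the opposite for the keratins of stratified epithelium. There 3 keratins were higher and 16 lower in the gastric adenocarcinomas (58.1% of all genes called, 35% higher and 23% lower), with a median difference of -0.51 over the 39 keratins and 0.11 over all genes. Krt5 read 3.40, 3.67 and 4.07 (lowest, median and highest of 11) in the tumours, 5.19, 6.51 and 7.82 in Prom1+ and 4.08, 4.89, 6.01 and 8.48 in Prom1- cells, just without overlap (-2.49, 95% interval -3.37 to -1.61, limma adjusted p = 8.8e-07). Krt6b lay at 2.23 to 2.64 in the tumours and at 3.24, 7.95 and 9.38 in Prom1+ and 2.30, 2.57, 4.89 and 9.45 in Prom1- cells (-3.35, limma adjusted p = 3.7e-08). Normal samples thus spread widely for both genes, while every tumour was near or below the array median.

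Krt13 (-2.41), Krt15 (-2.32), Krt14 (-2.05), Krt4 (-1.77), Krt79 (-1.76), Krt1 (-1.69) and Krt42 (-1.28) were also lower, with limma adjusted p-values from 4.32e-06 to 0.00278. Normal samples differed widely for Krt14 and Krt13: Prom1- replicate 3 read 8.81 for Krt14 and 7.33 for Krt13, whereas Prom1- replicate 1 read 3.50 and 3.71. The mean of 11 markers of stratified squamous epithelium ran from 3.28 to 5.50 over the normal samples and from 3.35 to 4.51 over the tumours, 6 of 11 markers being lower in tumours. Their part in the keratin differences was not tested. Krt7 rose by 2.52 (1.22 to 3.82, limma adjusted p = 0.000599), Krt20 by 1.79 (0.022) and Krt12 by 1.45 (0.0137). Krt12 ran from 2.46 to 9.32 over the tumours, and its call was lost with only the groups compared in the fit (adjusted p = 0.161) and against Prom1- cells alone (1.05, adjusted p = 0.155). The call of Krt20 was lost without Prom1- replicate 1, 1 of the 2 samples labelled Prom1- replicate 2, or Prom1+ replicate 1 or 3 (1.28 to 1.66). It was also lost after a repeated quantile normalization (1.42, adjusted p = 0.0712), with the upper quartile in the fit (1.26, 0.281), with only the groups compared (adjusted p = 0.1) and against Prom1+ cells alone (1.14, 0.337). That of Krt42 was lost when the upper quartile entered the fit (-0.01, adjusted p = 0.988).

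Krt8 (-0.27), Krt18 (0.62) and Krt19 (-0.14) did not pass in stomach, at levels from 9.91 to 13.33 in tumours and normal cells alike. Leaving out the 3 stomach arrays with an upper quartile under 6, with the 3 such arrays of liver and lung, reduced the 19 called keratins to 6, and of the 12 named here Krt5 (-2.0, adjusted p = 0.0039), Krt6b (-1.96, adjusted p = 0.00754), Krt7 (2.16, adjusted p = 0.0413) and Krt79 (-1.72, adjusted p = 0.016) were still called. Fibroblast (6 of 8) and leukocyte markers (6 of 8) were higher in the tumours, at 6.91 to 7.87 against 3.72 to 5.36 for fibroblasts, and all 8 stomach markers were lower. The part of these in the keratin values was not tested.

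In the uterus 10 keratins were higher and 2 lower in the adenocarcinomas (28.8% of all genes called), and the largest differences of any organ were among them. Krt14 read 12.78, 12.57, 12.77, 9.20, 12.57, 12.27, 9.32, 5.69 and 11.40 in the 9 tumours in order of replicate number, 3.50, 4.27, 3.28 and 5.87 in Prom1+ and 4.32, 3.95 and 3.47 in Prom1- cells. The difference was 6.88 (95% interval 5.73 to 8.03, limma adjusted p = 2.54e-18), and only adenocarcinoma 8 lay within the normal range. Its partner Krt5 read 12.05, 12.51, 12.14, 9.80, 10.95, 12.04, 8.23, 5.76 and 10.90 in the tumours and 3.92 to 6.31 in normal cells (5.68, 4.77 to 6.59, limma adjusted p = 2.37e-19).

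The other stratified keratins moved with this pair. Krt6a read 11.29, 11.19, 10.98, 8.53, 11.19, 11.06, 6.06, 3.39 and 10.11 in the tumours and 3.04 to 4.18 in normal cells (5.90, limma adjusted p = 7.57e-20). Krt6b was 4.58 higher, Krt15 3.67, Krt13 3.50 and Krt16 3.03, with limma adjusted p-values from 2.9e-11 to 4.05e-09. Adenocarcinoma 8 was the lowest of the 9 for all 7 of these keratins, and without it their differences were 7.54 for Krt14, 6.27 for Krt5, 6.64 for Krt6a, 5.35 for Krt6b, 4.07 for Krt15, 4.01 for Krt13 and 3.42 for Krt16, and the count was again 12. The same tumour did not stand out for Krt8 (11.79; 11.29 to 12.28 over the group) and held the group's highest Krt12 (8.86; the others 3.53 to 6.42).

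**Figure D4:**
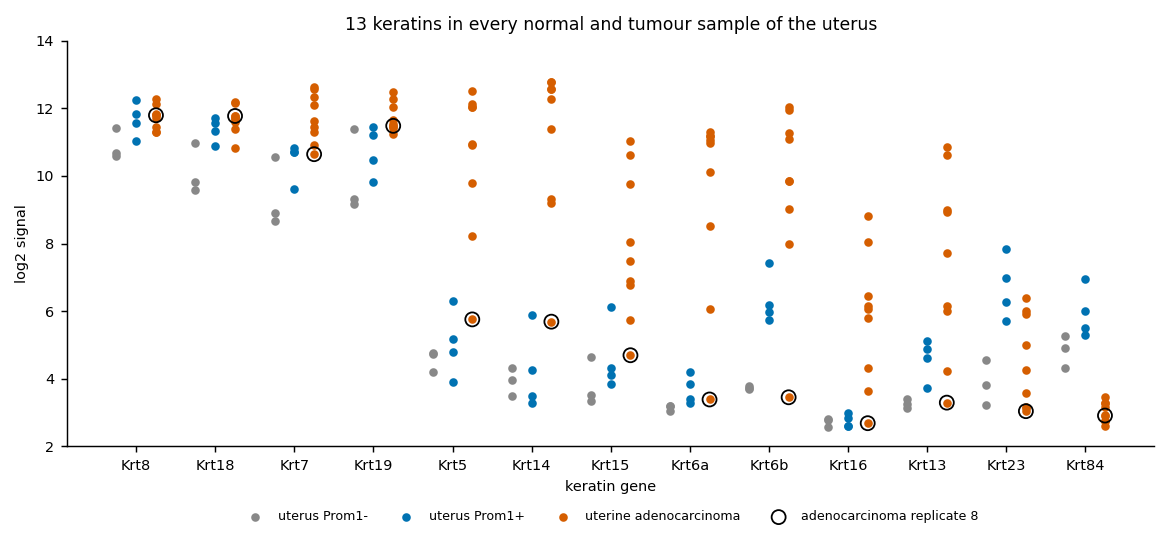
Log2 signal of 13 keratins in every Prom1- (grey) and Prom1+ (blue) sample and every adenocarcinoma (orange) of the uterus, with adenocarcinoma 8 circled. The simple keratins overlap between tumours and normal cells, Krt5, Krt14 and Krt6a are above every normal sample in 8 tumours and in the normal range in adenocarcinoma 8, Krt6b is at 3.45 in that tumour, below every normal sample, and Krt84 is lower in all 9.

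Of the simple keratins in uterus Krt7 passed (1.81, limma adjusted p = 0.0356), a call lost without Prom1- replicate 1 or 2, without Prom1+ replicate 3, and against Prom1+ cells alone. Krt19 (1.39, adjusted p = 0.0882), Krt18 (0.92, adjusted p = 0.119) and Krt8 (0.45, adjusted p = 0.535) did not, with upper limits of 2.63, 1.82 and 1.38. Krt84 fell by 2.37 (limma adjusted p = 2.52e-16), from 4.32 to 6.95 over all normal samples to 2.60 to 3.46 in the tumours, without overlap, and Krt83 fell by 1.05 (0.00166), a call lost against Prom1- cells alone (-0.53, adjusted p = 0.328). Krt4 (1.30, adjusted p = 0.0477) and Krt33b, of the hair cortex (0.96), passed narrowly, Krt4 losing its call without any 1 of 6 of the 7 normal samples and Krt33b without any 1 of 3. Markers of stratified squamous epithelium moved with these keratins: 8 of 11 were higher and their mean ran from 3.66 in adenocarcinoma 8 to 7.0 in adenocarcinoma 6, against 3.25 to 3.56 in normal cells. The mean of the 7 markers of uterus ran from 4.92 to 7.67 over the tumours, against 7.45 to 7.81 in normal cells. Trp63, a master regulator of stratified epithelium, was 3.75 higher (adjusted p = 1.61e-12 by limma). Their part in the keratin differences was not tested.

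Averaged over the 5 organs, 12 keratins were higher and 6 lower in tumours (65.8% of all genes called). Krt7 led with 2.69 (95% interval 2.13 to 3.25, limma adjusted p = 1.95e-14), followed by Krt23 (1.72), Krt18 (1.69), Krt6a (1.59), Krt8 (1.51) and Krt20 (1.15). Krt14 (1.0), Krt19 (0.86) and Krt5 (0.77) also passed, of which Krt14 (0.65, adjusted p = 0.066) and Krt19 (0.64, adjusted p = 0.102) were not called when the upper quartile entered the fit, and Krt79 (-0.62) and Krt84 (-0.58) were the lower keratins furthest from 0. The organs differed for 21 of the 39 keratins by the interaction F test, which called 77.9% of all genes; the smallest adjusted p was that of Krt5 (1.53e-19), which rose in uterus, fell in stomach and did not pass in the other 3 organs.

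The genes that anchor keratin filaments to desmosomes and hemidesmosomes and those that regulate keratins were followed beside them. Over the 5 organs all 13 tested anchors were higher in tumours, where 39% of all genes were, led by periplakin (Ppl, 2.44, adjusted p = 1.91e-34) and desmoplakin (Dsp, 1.90, adjusted p = 1.75e-14) in limma's fit. By organ, 11 anchors rose in prostate, 6 in lung (2 fell), 8 in liver (1 fell), 5 in stomach (1 fell) and 10 in uterus, where 20.9%, 23.4%, 29.2%, 35% and 16.4% of all genes rose. In uterus Col17a1, a hemidesmosome collagen, rose by 5.43 (adjusted p = 5.75e-17) and the desmosomal plakophilin Pkp1 by 4.60 (adjusted p = 9.93e-15). Of 10 tested regulators 0 rose and 7 fell in stomach, Grhl2 by -2.37 (adjusted p = 2.75e-13) and Grhl1 by -2.19 (adjusted p = 1.68e-09), whereas 5 rose and 1, Klf4 (-2.91, adjusted p = 2.38e-07), fell in uterus. Of all genes 35% rose and 23% fell in stomach, and 16.4% rose and 12.4% fell in uterus. Among other intermediate filament genes vimentin (Vim), the filament of mesenchymal cells, was 6.62 higher in gastric tumours than in sorted stomach cells (adjusted p = 3.21e-28), where fibroblast markers were higher too.

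The 7 tumour types were compared by setting each against the mean of the other 6, with 39 keratins and 13456 genes tested. The types differed for 38 of the 39 keratins (95.1% of all genes), all but Krt42, and for 25 without the skin carcinomas. The filter was applied again in that second fit, so that keratins such as Krt27 and Krt33a were no longer tested. The 25 are therefore not out of 39, and no share of all genes is given for them. In squamous cell carcinoma of the skin 32 keratins were higher and 2 lower (41.7% of all genes called, 19.2% higher and 22.5% lower), with a median difference of 2.41 over the keratins and -0.07 over all genes. Some keratins entered the test only through this group: Krt27 and Krt33a were above the array median in 3 of all 117 arrays, each a skin carcinoma. That such keratins were higher here followed from the filter, so the count and the median are descriptions only. Krt6b (9.42), Krt13 (8.56), Krt16 (8.35), Krt14 (8.31), Krt6a (8.08), Krt4 (7.18) and Krt5 (7.18) differed most, each with a limma adjusted p of 2.49e-20 or less, followed by Krt1 (6.87) and Krt10 (6.19). The 2 lower keratins were Krt8 (-2.75, adjusted p = 1.55e-06) and Krt18 (-2.66, adjusted p = 6.53e-07), while Krt7 (-1.33) and Krt19 (-0.42) did not pass. All 11 stratified squamous markers tested were higher there, and Trp63 stood at 9.54.

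B-cell lymphoma had 0 higher and 19 lower keratins (46.6% of all genes called, 24.3% higher and 22.3% lower). Krt8 read 3.41, 3.29 and 3.35 and Krt18 2.94, 4.0 and 2.90 in the 3 lymphomas, and 34 of the 41 keratins were at or under the array median in all 3. The 6 measured B cell markers averaged 8.43 and the 11 epithelial markers 3.71 in these samples. Krt222 had its highest group mean here, at 3.98, 3.64 and 3.61.

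The carcinomas of glandular organs had fewer keratins above the other types. The mean of the other 6 types included the skin carcinomas, where 28 of the 41 keratins had their highest group mean. The counts of lower keratins, also in lymphoma, thus depend in part on the skin values. Without the skin carcinomas Krt16 was not called in gastric (-0.55, limma adjusted p = 0.0767) or prostatic adenocarcinoma (-0.63, 0.0556). Krt6b (-1.31, 0.0684) and Krt13 (-1.08, 0.159) were then not called in lymphoma. Gastric adenocarcinoma had 6 higher and 17 lower (47.9% of all genes called, 23.8% higher), led by Krt20 (4.53, limma adjusted p = 2.06e-09), and bronchial adenoma 7 higher and 16 lower (58.1%, 23.9% higher), with Krt7 2.71 higher (adjusted p = 1.4e-06). Hepatocellular carcinoma had 3 higher and 20 lower (66.3%): Krt8 (2.13) and Krt18 (2.10) were higher, Krt19 (-4.51) and Krt7 (-4.06) lower. Prostatic adenocarcinoma had 10 higher and 8 lower (41.8%), led by Krt19 (4.16) and Krt4 (3.8), and 10 and 5 when the upper quartile entered the fit. Uterine adenocarcinoma had 12 higher and 4 lower (29.8%), led by Krt14 (5.68) and Krt6b (5.29), and 12 and 2 when it did. Krt5 in prostatic adenocarcinoma turned from -0.13, not called, to 1.10 (adjusted p = 0.00892) when the skin carcinomas were left out of the comparison.

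Krt5, Krt14, Krt6a and Krt6b were at similar high levels in all 6 skin carcinomas. Krt5 ranged from 12.09 to 12.88, Krt14 from 12.89 to 13.62, Krt6a from 12.60 to 13.03 and Krt6b from 12.54 to 13.63 over the 6. Krt1, the keratin of the first suprabasal layer, instead read 5.84, 13.43, 3.85, 13.60, 11.03 and 13.42 in carcinomas 1 to 6. Krt10, its partner, read 9.70, 13.09, 7.97, 13.13, 11.73 and 13.13, with the same tumours low.

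The simple keratins ran the other way in carcinomas 3, 4 and 6. Carcinoma 5, however, stood above carcinoma 1 for Krt19, Krt7 and Krt8 as well as for Krt1 and Krt10. Krt19 read 11.23, 8.62, 13.11, 3.38, 11.89 and 3.70 in carcinomas 1 to 6, and Krt7 read 9.80, 4.64, 12.63, 3.46, 11.29 and 3.53. Krt8 read 8.57, 9.22, 12.01, 3.73, 9.25 and 3.31, so that carcinomas 4 and 6 were near the level of the lymphomas and carcinoma 3 near that of the glandular carcinomas. Carcinoma 3 thus held the highest simple keratins with the lowest Krt1 and Krt10, and carcinomas 4 and 6 the lowest simple keratins with Krt1 and Krt10 above 13. Krt15, a basal keratin also known from the hair follicle bulge, read 10.32, 7.27, 11.39, 7.80, 11.37 and 8.12, in carcinomas 1, 3 and 5 above the rest, and Krt16 read 9.04, 12.46, 9.21, 13.17, 12.65 and 13.15. The 6 tumours thus lay far apart in these keratins. No clustering was run, and no pooled correlation between these keratins is given.

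Hair keratins were highest in carcinoma 4 of the skin but were not confined to it. Krt33a and Krt27 were each above the array median in 3 of the 6 skin carcinomas. All 16 keratins of the hair shaft, inner root sheath and companion layer were highest in carcinoma 4, and 14 of the 16 were second highest in carcinoma 6. The hair shaft keratin Krt33a read 3.02, 6.39, 2.56, 10.77, 3.08 and 7.96, and the inner root sheath keratin Krt27 read 3.08, 5.48, 2.84, 10.41, 3.30 and 8.83. The measured hair follicle markers other than keratins averaged 6.78 in carcinoma 4 and between 4.02 and 5.35 in the other 5. The stratified squamous markers averaged 8.38, 11.04, 7.35, 10.73, 9.99 and 11.03 in carcinomas 1 to 6, lowest in carcinoma 3. Their part in the keratin values was not tested.

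**Figure D5:**
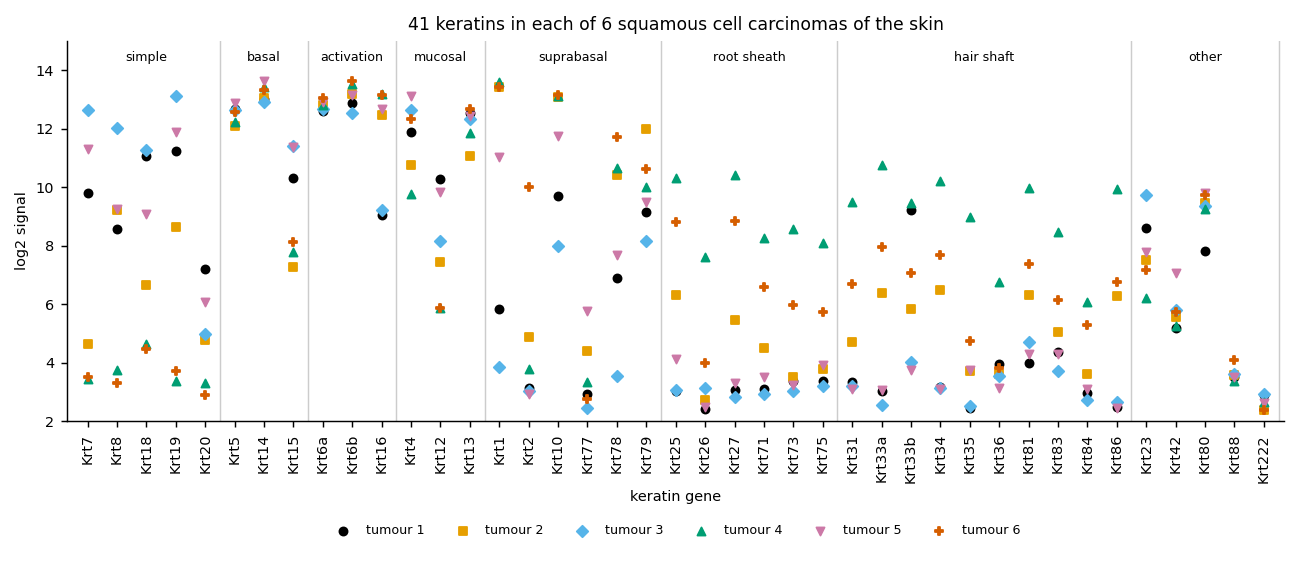
Log2 signal of the 41 keratins, ordered by role, in each of the 6 squamous cell carcinomas of the skin (1 symbol per tumour). The basal and activation keratins other than Krt15 and Krt16 coincide above 12, the simple and suprabasal keratins spread over up to 9.75 log2 units, and carcinoma 4 is the highest for all 16 hair and root sheath keratins.

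Within single tumour types, partner keratins were compared over tumours in 15 pairs, with p-values by permutation adjusted over the 15. The 5 pairs over the skin carcinomas are not given, because those few tumours lie far apart in several keratins. Krt8 and Krt18 correlated in gastric adenocarcinoma (n = 11, Pearson r = 0.94, permutation p = 1e-05, the smallest it can give, adjusted 0.00015; Spearman rho = 0.95, adjusted p = 0.00045), and r was 0.91 (adjusted p = 0.00186) without the 2 tumours farthest from the median of Krt8. In bronchial adenoma r was 0.86 (n = 14, permutation p = 0.00011, adjusted 0.000825; rho = 0.83, adjusted 0.00337), in hepatocellular carcinoma 0.86 (n = 13, permutation p = 0.0003, adjusted 0.0015; rho = 0.74, adjusted 0.0235) and in uterine adenocarcinoma 0.78 (n = 9, exact permutation p = 0.00996, adjusted 0.0249; rho = 0.78, adjusted 0.0517). Without the 2 farthest tumours these were 0.72 (n = 12), 0.60 (n = 11) and 0.76 (n = 7), with permutation adjusted p-values of 0.0656, 0.157 and 0.157. The coefficient thus fell in bronchial adenoma and hepatocellular carcinoma and changed little in uterine adenocarcinoma. With fewer tumours the p-values also rise for the same coefficient. In prostatic adenocarcinoma r was 0.56 (n = 10, permutation p = 0.0869, adjusted 0.118).

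Krt5 and Krt14 correlated over the 9 uterine adenocarcinomas (r = 0.96, exact permutation p = 0.000645, adjusted 0.00242; rho = 0.90, adjusted 0.0101), with r = 0.86 (adjusted p = 0.0893 by exact permutation) without the 2 farthest. Over the 10 prostatic adenocarcinomas r was -0.64 (permutation p = 0.0597, adjusted 0.0896). Krt6a and Krt16 gave r = 0.78 in uterine tumours (exact permutation p = 0.012, adjusted 0.0256; rho = 0.63, adjusted 0.127) and 0.57 without the 2 farthest, and Krt4 and Krt13 passed in no type tested. The labels used here give no slide or scan time, so these relations were not repeated within batches.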

How the data were processed

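Total RNA of 117 samples was measured on Affymetrix arrays, per the labels. The authors deposited log2 signals per probe set, made with RMA in Partek 6.6 per the submitters' processing notes. Of 45141 probe sets, 28898 named 1 gene, 551 several and 15692 none. Symbols were updated by Entrez ID with a RefSeq table (GRCm38.p6), and the probe set with the highest mean stood for each gene. The members and gene lists were chosen with earlier results of these data known. A gene was tested when above its array's median in at least 3 arrays of the fit. Group means were fitted with limma 3.58.1 (lmFit, eBayes) in R 4.3.3, and p-values were adjusted by Benjamini-Hochberg over all genes tested. Separate fits held the 51 sorted samples, all 117 samples for tumours against normal cells, and all 66 tumours. The fit of all 117 thus took in intestine, skin carcinoma and lymphoma for its spread and its filter. The code was tested on simulated data. The text names at most 12 called keratins per comparison, largest first, plus Krt5, Krt7, Krt8, Krt14, Krt18 and Krt19. Correlations used permutation tests in scipy 1.17.1, and plots used matplotlib 3.10.9. For 7 keratins there were several probe sets, and those used for Krt4, Krt14 and Krt42 may cross-hybridise. No 2 arrays of a group were identical (highest r = 0.992). Same-numbered samples of a tissue varied together in some pairs only (r from -0.34 to 0.59, above 0.1 in 7 of 19 pairs), and numbers were not used as pairs. A pairing by neighbouring sample codes was not examined. Alternatives were averaged probe sets, no filter, repeated quantile normalization, a robust trend, the upper quartile as a covariate, either sorted population as the only reference, only the groups compared, a replicate block, and leaving out samples. Added after seeing the data were leaving out uterine adenocarcinoma 8, prostatic adenocarcinoma 10 or the skin carcinomas. The number of arrays limits the precision.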

Additional observations from a re-analysis of the deposited data

Results flagged for a closer look

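Each keratin was examined in each group of 4 to 10 samples that held a level above 7, and 14 such sets (12.8% of those examined) held a sample far from the rest by Dixon's 95% criterion, which chance gives in about 1 in 20 sets. Uterine adenocarcinoma 8 was low for Krt6b (3.45, next 7.98) and Krt14 (5.69, next 9.20), and adenocarcinoma 9 was high for Krt10 (7.96, next 6.48). Prostatic adenocarcinoma 10 was low for Krt6a (3.36, next 6.04) and Krt23 (6.25, next 9.18), and adenocarcinoma 3 was high for Krt20 (10.87, next 5.80). Among the skin carcinomas, carcinoma 4 was high for Krt26 (7.62, next 3.98) and Krt35 (8.98, next 4.75), carcinoma 6 for Krt2 (9.99, next 4.89) and carcinoma 5 for Krt42 (7.05, next 5.81), while carcinoma 1 was low for Krt80 (7.83, next 9.25). In normal cells, the lowest samples were a Prom1+ uterus sample for Krt7 (9.61, next 10.71), a Prom1+ liver sample for Krt8 (8.30, next 9.65) and a Prom1- lung sample for Krt80 (7.55, next 8.68).

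The Prom1+ minus Prom1- difference depended on the tissue for Krt23 (limma interaction adjusted p = 0.002256) and Krt12 (0.04268). The tumour minus normal difference depended on the organ for 21 keratins, by limma's interaction F test. The adjusted p was 1.529e-19 for Krt5, 3.868e-17 for Krt14, 1.718e-17 for Krt6a, 2.19e-14 for Krt6b, 1.744e-11 for Krt13, 2.192e-11 for Krt15 and 4.093e-09 for Krt16. It was 8.643e-08 for Krt4, 3.924e-08 for Krt8, 1.146e-07 for Krt18, 0.04707 for Krt7 and 1.258e-10 for Krt23. For Krt80 it was 1.518e-15, for Krt84 1.326e-12, for Krt36 4.993e-11, for Krt73 2.141e-10 and for Krt79 1.39e-07. For Krt88 it was 0.0006968, for Krt42 0.003658, for Krt77 0.01949 and for Krt78 0.04988.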

How the results depend on the processing

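Of 510 recomputed counts of called keratins, 460 were within 1.5 times the main count and 50 were not, and of 3364 recomputed values of single keratins 3147 had the same direction and side of the threshold. The value that reversed was Krt5 in prostatic adenocarcinoma against the other types, from -0.13 to 1.10 (adjusted p = 0.00892) without the skin carcinomas, which changes the types it is set against. Among sorted cells the count in prostate went from 0 to 1 without arrays of upper quartile under 6 and to 2 with only the groups compared, that in liver from 0 to 1 after repeated quantile normalization, and that in stomach from 0 to 2 after it and to 3 with a covariate for the upper quartile. The count over the 6 tissues went from 3 to 1 without those arrays, and the interaction count from 2 to 1 with averaged probe sets, with no filter or after quantile normalization, to 5 with the covariate, to 6 without those arrays and to 0 with all samples fitted. With the replicate block the counts over the 6 tissues and for the interaction were both 0. The labels do not say whether samples that share a replicate number belong together. In stomach tumours the count went from 19 to 6 without those arrays. For the tumour types it went from 38 to 25 without the skin carcinomas, where fewer keratins passed the filter. The cause of these changes was not tested. Repeated quantile normalization moved the median of all genes from -0.12 to 0.06 in sorted liver and from 0.11 to -0.06 in stomach tumours.

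Samples were left out in 100 refits. Leaving out each sorted sample in turn gave counts of 1 to 5 for the sorted interaction, 0 to 1 for intestine, 0 to 2 for liver and 0 to 1 for lung. They were 0 to 3 for stomach, 2 to 5 for uterus and 2 to 6 over the 6 tissues. For tumours against normal cells only sorted samples of groups of 5 or fewer were left out, besides uterine adenocarcinoma 8 and prostatic adenocarcinoma 10. These counts ranged from 7 to 10 in prostate (9 samples left out in turn), 6 to 7 in lung (3) and 6 to 7 in liver (4). They were 16 to 19 in stomach (7) and 9 to 12 in uterus (8). The influence of the other samples on these counts was not examined. For the correlations, Krt8 with Krt18 in uterine adenocarcinoma had rho = 0.78 (adjusted p = 0.0517 by exact permutation) and 0.76 without the 2 farthest tumours, and the latter value was 0.72 in bronchial adenoma and 0.60 in hepatocellular carcinoma. In uterine adenocarcinoma Krt5 with Krt14 gave 0.86 without the 2 farthest, and Krt6a with Krt16 gave rho = 0.63 and 0.57. Signals near the array's floor hide differences among low keratins, so that absence of a call among hair keratins in glandular organs says little.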
